A study of Mus musculus with 9 samples.

Results

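The genes described here are the ligands *Igf1* and *Igf2*, the *Igf2r* receptor and the binding proteins *Igfbp2*, *Igfbp3*, *Igfbp4*, *Igfbp5*, *Igfbp6* and *Igfbp7*, which belong to the insulin-like growth factor (IGF) system of the mouse uterus. They were taken by gene symbol from the 31274 entries of the deposited expression table, and all 9 were found. All 9 also had a mean above 1 FPKM (fragments per kilobase of transcript, scaled to the size of the library) in both genotypes, so none entered the 14728 genes tested through one genotype alone. The uteri compared were 4 of the genotype Wnk1f/f, in which both *Wnk1* alleles were floxed, and 5 of the genotype Wnk1d/d. In Wnk1d/d, Cre expressed from the progesterone receptor (*Pgr*) locus had removed exon 2 of *Wnk1*, a kinase gene. By the paper, Wnk1d/d mice were heterozygous for this Cre allele (Cre/+), while the control genotype is written as the floxed alleles alone. An effect of the Cre allele itself cannot be told apart from that of *Wnk1* loss. All mice were C57BL/6 females, by the methods virgin and 6 to 10 weeks old, taken on day 4.5 of a pseudopregnancy that had been set off by mating to vasectomized males, so that no embryo tissue was present. Each library came from the whole uterus of 1 mouse, and p-values measure the spread between mice. The *Pgr* driver acts in cells that express or have expressed the progesterone receptor, which include uterine epithelium, stroma and smooth muscle and also cells of the ovary and pituitary, while endothelial and immune cells largely keep the floxed gene.

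IGF1 and IGF2 are secreted growth factors that act through the type 1 IGF receptor, a tyrosine kinase related to the insulin receptor. The type 2 receptor, encoded by *Igf2r*, is also the cation-independent mannose 6-phosphate receptor, and it takes up IGF2 for breakdown without passing on a growth signal. The binding proteins hold the ligands in tissue fluid with high affinity. They can prolong ligand life, keep ligand from the receptor, or release it when a protease cuts them, and several also act on cells without IGF. IGFBP7 binds IGF only weakly. In the rodent uterus *Igf1* is induced by estrogen, mainly in the stroma, and the binding proteins are made in distinct layers of the endometrium, muscle and vessel wall.

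The FPKM worth of 1 fragment was estimated from 56 low entries, chosen because their values above 0 lay close together across libraries. The estimate differed at most 1.26-fold between libraries. That choice itself limits the spread, so the estimate cannot show that the 9 libraries had similar depth. The number of fragments per gene is not known from FPKM, and no counting interval is given. The median log2(FPKM + 1) of the tested genes lay between 3.80 and 3.82 in all 9. *Wnk1* itself was 45.3 ± 1.62 FPKM (SD, n = 4) in Wnk1f/f and 31.2 ± 1.62 FPKM (SD, n = 5) in Wnk1d/d, with no overlap, a value that covers the whole gene and not exon 2 alone. Defining markers of uterus, epithelium, stroma, smooth muscle, blood vessel and leukocytes were present in every group. Summed over their lists, smooth muscle markers were 2797 to 6372 FPKM in Wnk1f/f and 7210 to 13650 FPKM in Wnk1d/d, stromal markers 1434 to 1931 FPKM and 2083 to 2754 FPKM, and blood vessel markers 346 to 379 FPKM and 141 to 291 FPKM. By the test used below, 6 of 6 smooth muscle markers and 4 of 6 stromal markers were higher in Wnk1d/d, and 5 of 6 blood vessel markers and 1 stromal marker were lower. The higher stromal markers were the matrix genes *Lum*, *Col1a1*, *Col3a1* and *Col6a3*, and *Dcn* did not pass. The lower one was *Pdgfra*, with means of 65.5 FPKM in Wnk1f/f and 37.7 FPKM in Wnk1d/d and no overlap. The uterus markers summed to 485 to 546 FPKM in Wnk1f/f and 331 to 424 FPKM in Wnk1d/d, and 2 of 4, *Hoxa10* and *Hoxa11*, were lower. Epithelial and leukocyte sums overlapped, with 0 of 6 and 0 of 5 markers passing limma's test after Benjamini-Hochberg adjustment. In whole tissue, fewer cells of a type and less RNA per cell cannot be told apart. A pair of libraries stood apart. Wnk1f/f replicate 4 had 157.7 FPKM of summed liver markers against 8.29 to 10.6 FPKM in the other Wnk1f/f libraries, and in Wnk1d/d replicate 4 a single entry held 70.3% of all FPKM. Calls of the 9 genes that are lost or gained without either of them are given beside the values.

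The binding protein genes lie partly in convergent pairs, in which the 2 genes of a pair end toward each other. On mm10, with gene limits from GENCODE M21, *Igfbp2* lay on the forward strand of chromosome 1 from 72824503 to 72852474 and *Igfbp5* on the reverse strand from 72857932 to 72874884, with 5457 bases between them. *Igfbp1* lay on the forward strand of chromosome 11 from 7197782 to 7202546 and *Igfbp3* on the reverse strand from 7206086 to 7213923, with 3539 bases between them. *Igfbp4* lay alone on chromosome 11 at 99041244 to 99054392, *Igfbp6* on chromosome 15 at 102144362 to 102149511, and *Igfbp7* on chromosome 5 at 77349240 to 77408041. *Igf1* lay on chromosome 10 at 87858265 to 87937042, *Igf2r* on chromosome 17 at 12682406 to 12769664, and *Igf2* on chromosome 7 at 142650766 to 142666816, with the noncoding RNA gene *H19* 72622 bases away.

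Promoter windows of 300 bases, from 250 bases before to 50 bases after the start of transcription, were read from RefSeq (GRCm38.p6), which held windows for 9 of 9 genes. The windows of the 4 genes in the convergent pairs are shown because these pairs contain the binding proteins, among the 6 tested, that changed most. They are written 5′ to 3′ on the strand of the gene, and capitals mark 2 motifs searched on both strands, GGGCGG (a GC box) and CAAAACA (a core of insulin response sequences).
Igfbp2, chr1:72824230-72824529, forward strand: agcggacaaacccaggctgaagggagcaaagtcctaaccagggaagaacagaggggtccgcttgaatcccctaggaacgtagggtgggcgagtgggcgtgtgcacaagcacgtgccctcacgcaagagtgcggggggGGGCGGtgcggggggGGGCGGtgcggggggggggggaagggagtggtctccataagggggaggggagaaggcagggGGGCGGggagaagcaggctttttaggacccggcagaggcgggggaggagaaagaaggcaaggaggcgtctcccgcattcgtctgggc
Igfbp5, chr1:72874816-72875115, reverse strand: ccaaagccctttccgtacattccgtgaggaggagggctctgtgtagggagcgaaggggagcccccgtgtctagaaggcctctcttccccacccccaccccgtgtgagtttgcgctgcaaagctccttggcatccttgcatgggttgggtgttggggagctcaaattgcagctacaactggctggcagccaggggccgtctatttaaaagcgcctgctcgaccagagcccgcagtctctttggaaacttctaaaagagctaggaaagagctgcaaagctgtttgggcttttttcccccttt
Igfbp3, chr11:7213874-7214173, reverse strand: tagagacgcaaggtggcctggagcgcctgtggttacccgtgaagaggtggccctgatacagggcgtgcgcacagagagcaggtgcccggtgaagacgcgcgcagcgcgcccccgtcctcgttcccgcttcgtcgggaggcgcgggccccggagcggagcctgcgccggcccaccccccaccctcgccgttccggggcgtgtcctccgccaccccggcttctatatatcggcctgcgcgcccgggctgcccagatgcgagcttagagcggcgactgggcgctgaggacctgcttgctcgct
Igfbp1, chr11:7197537-7197836, forward strand: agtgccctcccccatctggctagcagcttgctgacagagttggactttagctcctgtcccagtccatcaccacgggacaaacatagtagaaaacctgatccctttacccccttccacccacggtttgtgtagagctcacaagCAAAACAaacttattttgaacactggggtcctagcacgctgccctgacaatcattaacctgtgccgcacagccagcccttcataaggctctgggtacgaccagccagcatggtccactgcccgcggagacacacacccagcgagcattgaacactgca
The *Igfbp2* window shown held GGGCGG at 3 positions, which began at bases -113, -98 and -37 from the start, where -1 is the base just before it. Neither the *Igfbp5* nor the *Igfbp3* window held either motif. The *Igfbp1* window held 1 copy of CAAAACA, at base -108. Among all 32851 windows of the RefSeq table, 35.7% held GGGCGG and 6.28% held CAAAACA. Of the 9 genes, 4 had a window with GGGCGG (*Igf2*, *Igf2r*, *Igfbp2* and *Igfbp7*), and 0 had one with CAAAACA. A forkhead motif, TGTTTAC, was found for 0 of 9 genes against 3.65% of all windows, and TATAAA for 2 of 9 (*Igfbp4* at base -28 and *Igfbp6* at base -148) against 13.6%. The counts are of genes, which had 13 windows together, while the shares are of windows, so the comparison is only rough. The GC content was 71.7% in the *Igfbp3* window, 67.0% in the *Igfbp2* window shown, 56.3% in the *Igfbp5* window and 54.3% in the *Igfbp1* window, against a median of 52.7% over all windows. RefSeq held 2 windows for *Igfbp2*, and the other, at chr1:72825137-72825436, had 57.3% GC and neither motif.

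The question of the comparison was how the IGF genes of a receptive uterus differed between Wnk1f/f and Wnk1d/d mice. In Wnk1d/d uteri both ligand transcripts and *Igfbp3* were lower, *Igfbp2* and *Igfbp5* were higher, and *Igfbp4*, *Igfbp6* and *Igfbp7* did not pass the test. *Igf2r* was lower by less than 1.5-fold. By limma on log2(FPKM + 1), with Benjamini-Hochberg adjustment over all 14728 genes and an adjusted p under 0.05, 2 of the 9 genes were higher in Wnk1d/d and 4 were lower, and 3 did not pass. Over all genes tested, 22.1% passed, 11.1% as higher and 11.0% as lower. The study's methods also asked for a difference of 1.5-fold or more in mean FPKM. With it, 2 of the 9 remained higher and 3 lower, where 5.09% and 5.18% of all genes met both criteria and 10.3% did so in either direction. For 5 of the 9 genes the FPKM of the 2 genotypes did not overlap, which was so for 19.9% of all genes tested. The median log2 fold change of the 9 genes was -0.25 and the median of its size 0.57, beside 0.0030 and 0.19 over all genes. Fold changes are on the log2(FPKM + 1) scale, which understates the change of genes near 1 FPKM.

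**Figure D1:**
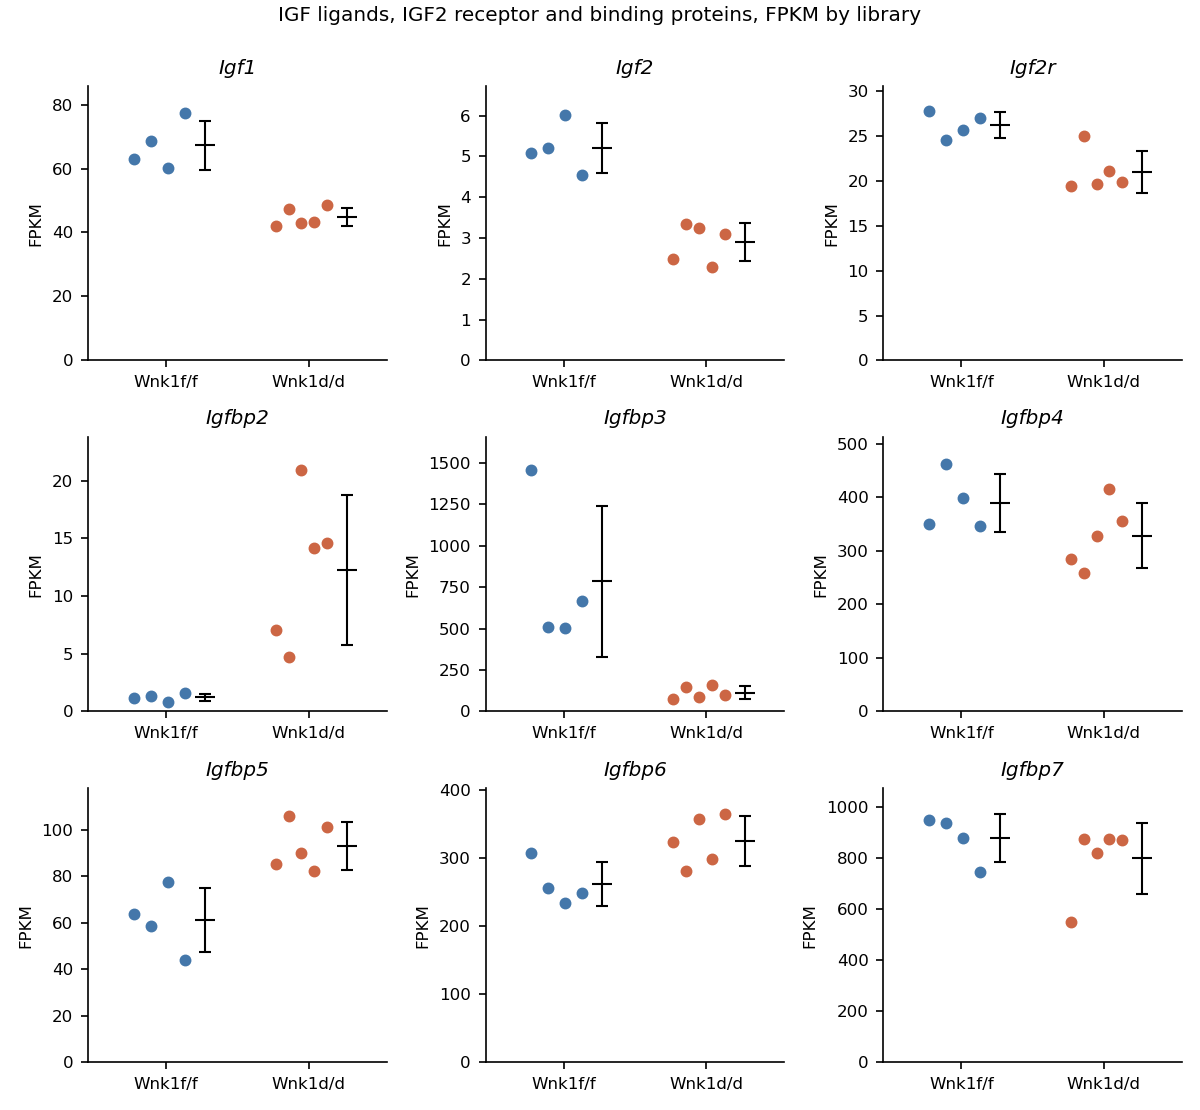
FPKM of the 9 IGF genes in each library (vertical axes, each starting at 0), with Wnk1f/f in blue (n = 4) and Wnk1d/d in orange (n = 5), points in replicate order and black bars giving the mean and SD. *Igf1*, *Igf2* and *Igfbp3* lay lower in every Wnk1d/d library and *Igfbp2* and *Igfbp5* higher, while the genotypes overlapped for the other 4 genes.

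Both ligands were lower in Wnk1d/d uteri. *Igf1*, the ligand that estrogen induces in the uterus, was 63.0, 68.7, 60.1 and 77.4 FPKM in Wnk1f/f replicates 1 to 4 and 42.1, 47.3, 42.9, 43.3 and 48.7 FPKM in Wnk1d/d replicates 1 to 5. Every Wnk1d/d library lay below every Wnk1f/f library. The means were 67.3 ± 7.66 (SD, n = 4) and 44.8 ± 2.94 FPKM (SD, n = 5), a log2 fold change of -0.57 (SE 0.08, limma with Benjamini-Hochberg adjustment, adjusted p = 0.0043), and an exact two-sided permutation test gave p = 0.0079, the smallest that 4 against 5 libraries can give. The highest value came from Wnk1f/f replicate 4, the library with the liver markers, and liver is the main source of circulating IGF1. Whether liver RNA added to the *Igf1* value of that library was not tested. Without that library the Wnk1f/f mean was 63.9 FPKM, the adjusted p of limma with Benjamini-Hochberg adjustment was 0.011, and the ratio of Wnk1d/d to Wnk1f/f was 0.702 in place of 0.666. *Igf1* only just met the 1.5-fold criterion and fell short of it, at 1.43-fold to 1.49-fold, without Wnk1f/f replicate 2 or 4 or Wnk1d/d replicate 1, 3 or 4, while the adjusted p stayed under 0.05 without any 1 library.

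*Igf2*, the ligand that is also imprinted and most active in fetal tissue, was far less abundant, with 5.09, 5.20, 6.02 and 4.54 FPKM in Wnk1f/f and 2.49, 3.35, 3.24, 2.30 and 3.10 FPKM in Wnk1d/d. Again the genotypes did not overlap. The means were 5.21 ± 0.611 (SD, n = 4) and 2.90 ± 0.471 FPKM (SD, n = 5), a log2 fold change of -0.68 (SE 0.11, limma with Benjamini-Hochberg adjustment, adjusted p = 0.0056). *Igf1* exceeded *Igf2* by 9.98 to 17.1 times in Wnk1f/f and by 13.2 to 18.8 times in Wnk1d/d, so this ratio overlapped between genotypes. Together the ligands summed to 72.5 ± 7.13 FPKM in Wnk1f/f (SD, n = 4) and 47.7 ± 3.24 FPKM in Wnk1d/d (SD, n = 5), with no overlap. *H19*, the imprinted noncoding neighbour of *Igf2*, was near 0 in both, at 0.265 ± 0.0975 (SD, n = 4) and 0.114 ± 0.0462 FPKM (SD, n = 5), and was not among the genes tested.

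*Igf2r*, the receptor that clears IGF2, was 27.8, 24.5, 25.7 and 27.1 FPKM in Wnk1f/f and 19.5, 25.0, 19.7, 21.1 and 19.9 FPKM in Wnk1d/d. Of the Wnk1d/d libraries only replicate 2 reached into the Wnk1f/f range. The means of 26.3 ± 1.45 (SD, n = 4) and 21.03 ± 2.32 FPKM (SD, n = 5) gave a log2 fold change of -0.31 (SE 0.08, limma with Benjamini-Hochberg adjustment, adjusted p = 0.027), below the 1.5-fold criterion. The call was sensitive to single libraries. It was lost on leaving out Wnk1f/f replicate 1 or 4 or Wnk1d/d replicate 1, 3, 4 or 5, with adjusted p up to 0.072 by limma with Benjamini-Hochberg adjustment. *Airn*, a noncoding RNA gene that runs antisense inside *Igf2r* in the annotation, was listed at 13.7 to 17.8 FPKM in Wnk1f/f and 9.92 to 14.3 FPKM in Wnk1d/d. As no strand-specific counting is stated, fragments of these 2 overlapping genes cannot be fully told apart. The ratio of *Igf2* to *Igf2r* was 0.168 to 0.234 in Wnk1f/f and 0.109 to 0.165 in Wnk1d/d, with no overlap, since the ligand was lower by more than its receptor.

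*Igfbp3* and *Igfbp2* moved in opposite directions and, among the 6 binding proteins tested, by the most. *Igfbp3* encodes the main carrier of IGF in serum, which many tissues also make locally. It was 1459, 507, 506 and 664 FPKM in Wnk1f/f and 72.1, 148, 89.9, 159.6 and 99.2 FPKM in Wnk1d/d. The highest Wnk1d/d library was far below the lowest Wnk1f/f library, and Wnk1f/f replicate 1 stood far above the other controls. The means were 784 ± 456 (SD, n = 4) and 114 ± 38.2 FPKM (SD, n = 5), a 6.89-fold difference, and the log2 fold change was -2.69 (SE 0.35, limma with Benjamini-Hochberg adjustment, adjusted p = 0.0027). Without Wnk1f/f replicate 1 the Wnk1f/f mean was 559 FPKM and the difference 4.91-fold. Of the 14728 genes tested, *Igfbp3* ranked 68 from the lowest by the ratio of mean FPKM and 11 by log2 fold change.

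*Igfbp2*, which encodes a binding protein abundant in fetal tissue and serum, was 1.17, 1.33, 0.79 and 1.57 FPKM in Wnk1f/f and 7.06, 4.69, 20.9, 14.2 and 14.6 FPKM in Wnk1d/d. All Wnk1f/f libraries sat near the limit of the filter, and the Wnk1d/d libraries, though all higher, varied widely among themselves. The means were 1.22 ± 0.328 (SD, n = 4) and 12.3 ± 6.50 FPKM (SD, n = 5), a ratio of 10.1, with a log2 fold change of 2.44 (SE 0.36, limma with Benjamini-Hochberg adjustment, adjusted p = 0.0041). It ranked 51 from the highest by the ratio and 26 by log2 fold change. Leaving out each library in turn gave log2 fold changes of 2.22 to 2.70 for *Igfbp2* and -2.85 to -2.34 for *Igfbp3*.

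**Figure D2:**
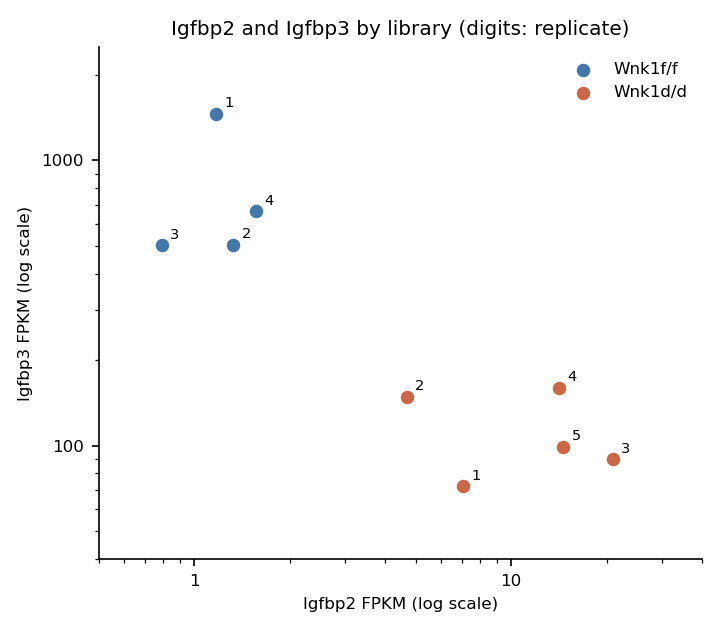
*Igfbp2* FPKM (horizontal axis, log scale) against *Igfbp3* FPKM (vertical axis, log scale) in the 9 libraries, coloured by genotype and numbered by replicate. The 4 Wnk1f/f libraries lie at the upper left, between 506 and 1459 FPKM of *Igfbp3*, and the 5 Wnk1d/d libraries at the lower right, between 4.69 and 20.9 FPKM of *Igfbp2*.

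Their ratio combines both differences. As each gene already separated the genotypes, in opposite directions, the ratio had to separate them too. *Igfbp3* exceeded *Igfbp2* by 1247, 381, 641 and 423 times in Wnk1f/f and by 10.2, 31.7, 4.29, 11.3 and 6.78 times in Wnk1d/d. The ranges were thus far apart, although *Igfbp3* remained the more abundant of the pair in every library. The log2 ratio was 9.23 ± 0.776 (SD, n = 4) in Wnk1f/f and 3.34 ± 1.07 (SD, n = 5) in Wnk1d/d. No test is given for this ratio, as for the other sums, shares and ratios of these genes.

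Each of these genes had a convergent neighbour that differed in the same direction. *Igfbp5*, the neighbour of *Igfbp2*, encodes a binding protein that attaches to extracellular matrix. It was 63.9, 58.8, 77.6 and 44.2 FPKM in Wnk1f/f and 85.5, 105.9, 90.2, 82.1 and 101.4 FPKM in Wnk1d/d, with no overlap. The means were 61.1 ± 13.8 (SD, n = 4) and 93.0 ± 10.2 FPKM (SD, n = 5), a ratio of 1.52 and a log2 fold change of 0.62 (SE 0.15, limma with Benjamini-Hochberg adjustment, adjusted p = 0.020). The change was thus far smaller than that of *Igfbp2*, and it was close to the 1.5-fold criterion. Without Wnk1f/f replicate 4, the lowest control, the ratio was 1.39, and without Wnk1d/d replicate 2 or 5 it was 1.47 and 1.49. *Igfbp1*, the neighbour of *Igfbp3* and the classical binding protein of liver and decidua, was 1.64, 0.80, 0.35 and 1.06 FPKM in Wnk1f/f and 0.02, 0.31, 0.06, 0.13 and 0.09 FPKM in Wnk1d/d. The genotypes did not overlap, but the means of 0.963 and 0.122 FPKM kept *Igfbp1* out of the genes tested. In a fit without the filter, its log2 fold change was -0.77 (SE 0.17, limma with Benjamini-Hochberg adjustment, adjusted p = 0.023).

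The remaining binding proteins were abundant in both genotypes and differed little. *Igfbp6*, whose product prefers IGF2 over IGF1, was 307, 256, 234 and 249 FPKM in Wnk1f/f and 323, 282, 357, 298 and 365 FPKM in Wnk1d/d. Only Wnk1f/f replicate 1 lay within the Wnk1d/d range. The means were 262 ± 31.9 (SD, n = 4) and 325 ± 36.1 FPKM (SD, n = 5), a log2 fold change of 0.31 with a 95% interval of 0.07 to 0.56, and limma with Benjamini-Hochberg adjustment gave an adjusted p of 0.068. The call was made on leaving out Wnk1f/f replicate 1 or Wnk1d/d replicate 2, where limma with Benjamini-Hochberg adjustment gave adjusted p of 0.043 and 0.037. *Igfbp4*, the substrate of the protease PAPP-A, was 349, 463, 398 and 347 FPKM in Wnk1f/f and 285, 259, 327, 415 and 355 FPKM in Wnk1d/d. The genotypes overlapped widely, and the log2 fold change was -0.25 with a 95% interval of -0.59 to 0.08 (limma with Benjamini-Hochberg adjustment, adjusted p = 0.23). With quantile normalization the adjusted p of limma with Benjamini-Hochberg adjustment was 0.027, at a log2 fold change of -0.43.

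*Igfbp7*, whose low-affinity product is found in vessel walls, was the most abundant in 8 of 9 libraries, at 949.5, 938, 880.2 and 747 FPKM in Wnk1f/f and 552, 877, 820.2, 877 and 871 FPKM in Wnk1d/d. Apart from the low value of Wnk1d/d replicate 1, the ranges coincided. That library also had the lowest sum of blood vessel markers, 141 FPKM against 187 to 291 FPKM in the other Wnk1d/d libraries, whose part in the result was not tested. The log2 fold change was -0.15 with a 95% interval of -0.50 to 0.20 (limma with Benjamini-Hochberg adjustment, adjusted p = 0.50), and without Wnk1d/d replicate 1 the ratio of the means was 0.980.

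The balance between the binding proteins therefore shifted through *Igfbp3* above all. FPKM is per length of transcript, so levels of different genes may be added. The 6 transcripts summed to 3130, 2224, 2096 and 2053 FPKM in Wnk1f/f and to 1324, 1677, 1705, 1846 and 1806 FPKM in Wnk1d/d. The genotypes did not overlap, with means of 2376 ± 508 (SD, n = 4) and 1672 ± 207 FPKM (SD, n = 5). Without *Igfbp3* the sums were 1592 ± 145 (SD, n = 4) and 1558 ± 185 FPKM (SD, n = 5) and overlapped. *Igfbp3* thus accounted arithmetically for nearly all of the difference between the sums.

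*Igfbp3* made up 46.6%, 22.8%, 24.1% and 32.3% of the summed binding protein FPKM in Wnk1f/f, and 5.45%, 8.86%, 5.27%, 8.64% and 5.49% in Wnk1d/d. Its share fell from a mean of 31.5% to one of 6.74%, without overlap. The shares of a library form a whole, so a lower *Igfbp3* raises the other shares even where their own FPKM does not rise. *Igfbp6*, whose FPKM did not pass the test, took 11.2 ± 0.979% (SD, n = 4) in Wnk1f/f and 19.7 ± 3.34% (SD, n = 5) in Wnk1d/d. *Igfbp5* took 2.63 ± 0.759% (SD, n = 4) and 5.63 ± 0.817% (SD, n = 5), and both shares were without overlap. *Igfbp2* remained below all others, at 0.0374% to 0.0765% in Wnk1f/f and 0.280% to 1.23% in Wnk1d/d. The shares of *Igfbp4*, 17.0 ± 4.18% (SD, n = 4) and 19.7 ± 2.72% (SD, n = 5), and of *Igfbp7*, 37.7 ± 5.62% (SD, n = 4) and 47.6 ± 3.82% (SD, n = 5), overlapped. Their mean shares were higher in Wnk1d/d although their mean FPKM was lower, at 389 and 328 FPKM for *Igfbp4* and 879 and 799.5 FPKM for *Igfbp7*.

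**Figure D3:**
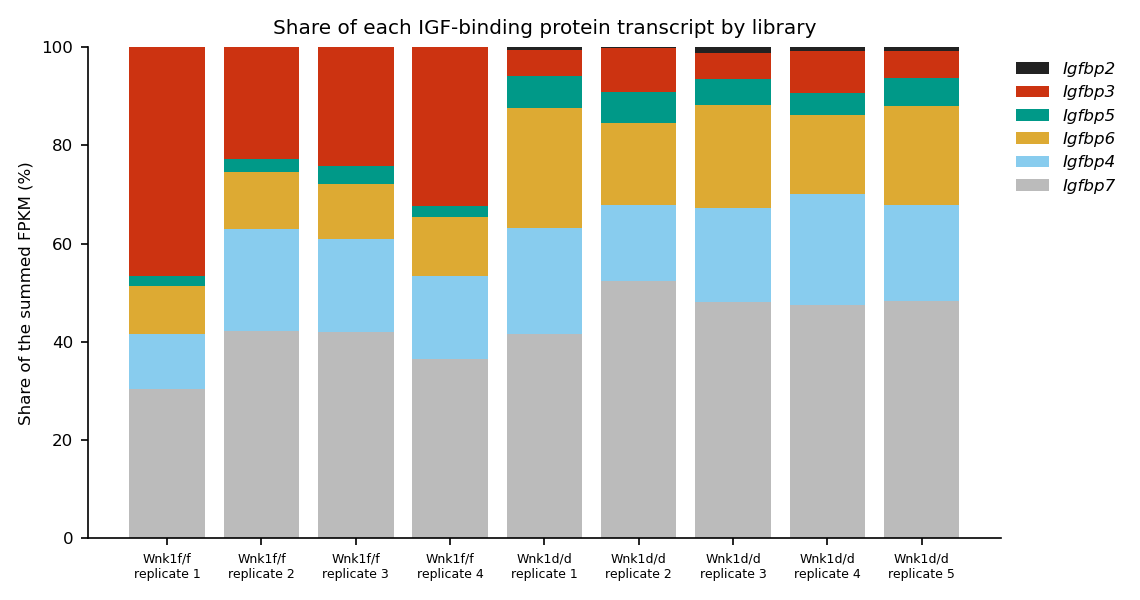
Share of each of the 6 binding protein transcripts in their summed FPKM (vertical axis, percent), 1 bar per library. *Igfbp3* (red) takes 22.8% to 46.6% in the 4 Wnk1f/f libraries and 5.27% to 8.86% in the 5 Wnk1d/d libraries. *Igfbp5* (green) and *Igfbp6* (yellow) take larger shares in Wnk1d/d, of a sum that is smaller there mainly through *Igfbp3*.

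The order of the transcripts changed accordingly. In every Wnk1f/f library *Igfbp3* ranked 1 or 2 by abundance and *Igfbp6* ranked 4. In Wnk1d/d *Igfbp6* ranked 2 or 3, and *Igfbp3* ranked 4 or 5, close to *Igfbp5*, with a ratio of *Igfbp3* to *Igfbp5* of 0.843 to 1.94 against 6.52 to 22.8 in Wnk1f/f. *Igfbp2* was the lowest in all 9 libraries. *Igfbp4* and *Igfbp6* stood next to each other in rank in Wnk1d/d, and their means of 328 ± 61.1 and 325 ± 36.1 FPKM (SD, n = 5) lay within their spread.

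Ligand and binding protein transcripts were both lower in Wnk1d/d, and their ratio overlapped. Ligand FPKM was 2.18%, 3.32%, 3.15% and 3.99% of binding protein FPKM in Wnk1f/f and 3.37%, 3.02%, 2.71%, 2.47% and 2.87% in Wnk1d/d. The means were 3.16 ± 0.751% (SD, n = 4) and 2.89 ± 0.338% (SD, n = 5). The direction of this small difference turned when Wnk1f/f replicate 4 was left out, from -0.11 to 0.0176 on the log2 scale, and when *Igfbp7* was not counted as a binding protein, to 0.14.

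The cell type markers moved together with several of these genes. Beside lower *Igfbp3* and ligands, the blood vessel and uterus sums were lower without overlap. Beside higher *Igfbp2* and *Igfbp5*, the smooth muscle and stromal sums were higher without overlap, so the stromal sum and the ligands differed in opposite directions. *Pdgfra* of the stromal list went the other way and was lower. Within Wnk1d/d, *Igfbp3* was lowest in replicate 1, which had the lowest blood vessel sum, 141 FPKM, and highest in replicates 4 and 2, which had the highest, 242 and 291 FPKM. *Igfbp2* was lowest in Wnk1d/d replicate 2, which had the lowest smooth muscle sum of its genotype, 7210 FPKM. Within Wnk1f/f, *Igfbp5* and the smooth muscle sum were both lowest in replicate 4, at 44.2 and 2797 FPKM. Their highest values were in replicate 3 for *Igfbp5*, 77.6 FPKM, and in replicate 1 for the sum, 6372 FPKM. In other comparisons the orders differed. Wnk1f/f replicate 1, with by far the most *Igfbp3* of the controls, had the lowest blood vessel sum of the controls, 346 FPKM. The highest *Igfbp2* was in Wnk1d/d replicate 3, with a smooth muscle sum of 10760 FPKM, whereas Wnk1d/d replicate 4 had the highest smooth muscle sum, 13650 FPKM. Within Wnk1d/d, *Igfbp5* was highest in replicate 2, at 105.9 FPKM, and lowest in replicate 4, at 82.1 FPKM, opposite to their smooth muscle sums. Wnk1d/d replicate 4 also had the lowest stromal sum of its genotype, 2083 FPKM. The part of cell composition in these differences was not tested.

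Genes around the ligands and binding proteins were read from a fixed list of 27, of which 18 had a mean above 1 FPKM in a genotype. By limma with Benjamini-Hochberg adjustment 6 of the 18 were higher in Wnk1d/d and 4 lower, where 11.1% and 11.0% of all genes passed. By the study's criteria 5 and 4 did so, beside 5.09% and 5.18% of all genes. The median log2 fold change of the 18 was 0.12 and the median of its size 0.51, beside 0.0030 and 0.19 over all genes. The 4 lower ones were all receptors or docking proteins, of which 7 were tested. *Irs2* among them reached the filter through Wnk1f/f alone, while *Igf1r*, *Insr* and *Grb14* had means above 1 FPKM in both genotypes.

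*Igf1r*, the receptor through which both ligands act, was 18.6, 15.5, 15.5 and 18.2 FPKM in Wnk1f/f and 8.05, 10.6, 7.42, 8.21 and 8.18 FPKM in Wnk1d/d. The genotypes were well apart, and the ratio of Wnk1d/d to Wnk1f/f was 0.501. The log2 fold change was -0.92 (SE 0.10, limma with Benjamini-Hochberg adjustment, adjusted p = 0.0018). *Insr*, the insulin receptor, went from 13.7 ± 1.36 (SD, n = 4) to 8.46 ± 1.57 FPKM (SD, n = 5), a log2 fold change of -0.64 (limma with Benjamini-Hochberg adjustment, adjusted p = 0.0098). *Grb14*, an adaptor that inhibits the insulin receptor, had a log2 fold change of -0.94 and *Irs2*, a docking protein of both receptors, one of -0.91 (limma with Benjamini-Hochberg adjustment, adjusted p = 0.0067 and 0.017). *Irs1*, the other main docking protein, had a log2 fold change of 0.31 with an adjusted p of 0.068 by limma with Benjamini-Hochberg adjustment, and *Grb10* and *Shc1* did not pass. With *Igf1*, *Igf2* and *Igf2r* added, both ligands and 3 of 3 tested receptors of IGF and insulin passed as lower, beside 11.0% of all genes. Of these, *Igf2r* stayed below the 1.5-fold criterion, and its call was lost without some single libraries.

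Of 10 listed proteins that handle binding proteins or ligand outside the cell, 5 were tested and 3 were higher in Wnk1d/d. Over all genes tested, 11.1% passed as higher. *Stc2*, which encodes stanniocalcin 2, an inhibitor of PAPP-A, was 8.84 ± 2.07 FPKM (SD, n = 4) in Wnk1f/f and 23.4 ± 4.51 FPKM (SD, n = 5) in Wnk1d/d, a log2 fold change of 1.31 (limma with Benjamini-Hochberg adjustment, adjusted p = 0.0029). *Htra1*, a secreted protease that cleaves IGFBP5, had 56.4 ± 0.980 (SD, n = 4) and 91.2 ± 13.3 FPKM (SD, n = 5), with a log2 fold change of 0.67. *Adam12*, a protease that cleaves IGFBP3 and IGFBP5, had 4.41 ± 1.02 (SD, n = 4) and 8.97 ± 1.58 FPKM (SD, n = 5), with a log2 fold change of 0.89. The adjusted p of limma with Benjamini-Hochberg adjustment was 0.0055 for *Htra1* and 0.0068 for *Adam12*. None of the 3 overlapped between genotypes, which was so for 19.9% of all genes tested. *Pappa*, the gene of PAPP-A itself, is named here after its values were seen. It was below the filter, with 0.66 to 1.10 FPKM in Wnk1f/f and 0.41 to 0.65 FPKM in Wnk1d/d. *Stc1* and *Adam28* did not pass, and *Igfals*, which encodes a partner of IGFBP3 in serum, was below 1 FPKM in every library.

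On the growth hormone side, 2 of 4 genes were higher in Wnk1d/d, beside 11.1% of all genes tested. *Socs2*, a feedback inhibitor of growth hormone signalling, was 21.5 ± 3.43 (SD, n = 4) and 37.9 ± 5.39 FPKM (SD, n = 5), a log2 fold change of 0.79 (limma with Benjamini-Hochberg adjustment, adjusted p = 0.0060). *Stat5a*, a transcription factor downstream of growth hormone and prolactin receptors, had a log2 fold change of 0.65 (limma with Benjamini-Hochberg adjustment, adjusted p = 0.016), with Wnk1d/d replicate 4 inside the control range. *Ghr*, the growth hormone receptor, and *Stat5b* did not pass. *M6pr*, the smaller mannose 6-phosphate receptor, which does not bind IGF2, was higher in Wnk1d/d by 0.35 on the log2 scale (limma with Benjamini-Hochberg adjustment, adjusted p = 0.010), opposite to *Igf2r*, and stayed below 1.5-fold. *Igf2bp2* did not pass.

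**Figure D4:**
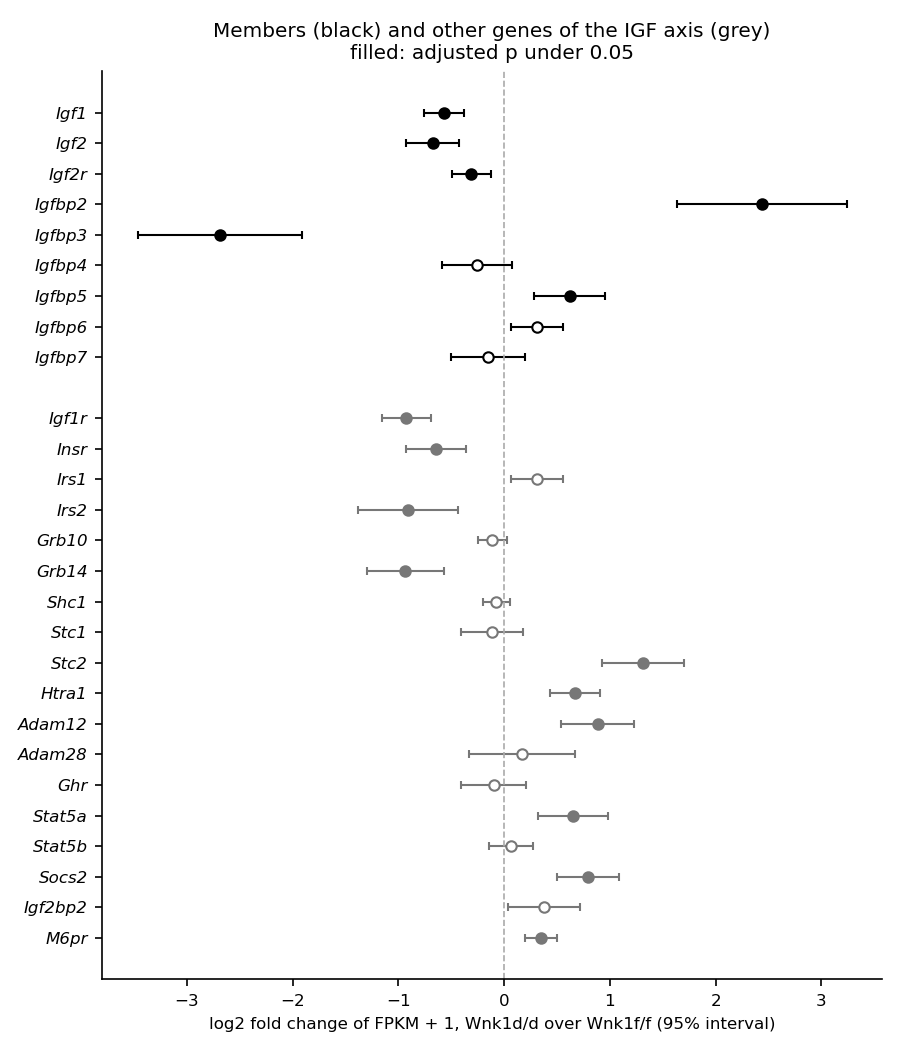
Log2 fold change of FPKM + 1, Wnk1d/d over Wnk1f/f (horizontal axis), for the 9 IGF genes (black) and the 18 tested genes of the IGF list (grey), with 95% intervals, 4 against 5 libraries. Filled points passed limma's test after Benjamini-Hochberg adjustment, and the intervals of *Igfbp2* and *Igfbp3* lie farthest from 0, on opposite sides.

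The genes most like each of the changed IGF genes were found by the mean absolute difference of centred log2(FPKM + 1) over the 9 libraries, in units of the SD of the IGF gene. For *Igfbp3* these were *Cyp1b1* (0.211), *Spink3* (0.248) and *Rnase1* (0.290). *Spink3*, which encodes a secreted trypsin inhibitor, had a mean of 4247 FPKM in Wnk1f/f and 733 FPKM in Wnk1d/d, and *Cyp1b1*, an estrogen-metabolizing enzyme, had 20.0 and 3.61 FPKM. For *Igfbp2* they were *Lgr6* (0.262), *Ptpn5* (0.272) and *P4ha3* (0.295), with means of 1.46, 5.58 and 1.73 FPKM in Wnk1f/f and 9.81, 39.7 and 10.7 FPKM in Wnk1d/d. *Igf1* was most like *Trmt1* (0.122), *Igf2* most like *Kbtbd11* (0.223), *Igf2r* most like *Zfp609* (0.165) and *Igfbp5* most like *Tmem33* (0.245). The genotype difference forms most of each of these patterns, so the likeness describes these 9 libraries and carries no test.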

How the data were processed

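RNA of the whole uterus was sequenced from 4 Wnk1f/f and 5 Wnk1d/d mice, 1 library per mouse (TruSeq, HiSeq 2000, 75 nt paired-end). By the methods, the authors kept reads of good quality and aligned them to mm10 with TopHat, and the deposited values are FPKM per gene. The submitters' processing notes list TopHat2 2.0.4 and Cufflinks 2.0.2, while the methods name a later Cufflinks release for the differential test. The gene annotation behind the table is not given in the sources used here. FPKM holds no counts, so the Cuffdiff test of the study, which needs aligned reads, was not rerun. No column belonged to other samples (0).

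Genes with a mean above 1 FPKM in at least 1 genotype were tested on log2(FPKM + 1) with limma 3.58.1 in R 4.3.3, using lmFit and a mean-variance trend in eBayes. The libraries were not paired, and p-values were adjusted by Benjamini-Hochberg over all 14728 genes. A call needed an adjusted p under 0.05, and the study's criteria also a 1.5-fold difference of mean FPKM. The exact permutation test was two-sided, on the difference of mean log2 values (SciPy 1.17.1). The fit was tested on simulated data. Sums, shares and ratios carry no test. Alternatives were pseudocounts of 0.1 and 0.01, no filter, a stricter minimum of 5 FPKM, scaling by quantile or by median, limma with weights per library, robustly or with the trend dropped, the fit blocked on replicate number, the omission of each library, a fold criterion of 2, and the binding proteins without *Igfbp7*. The rule for named genes took all 9 IGF genes, the genes of the fixed list of 27 that passed, *Igf1r*, *Insr*, *Igfbp1* and *H19* whatever they showed, and the 3 nearest genes of each member. The members and lists were chosen with earlier results of these data known. Gene positions are from GENCODE M21, promoter sequences from RefSeq (GRCm38.p6).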

Additional observations from a re-analysis of the deposited data

Results flagged for a closer look

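In 34 groups of values (the 9 IGF genes, their sums, shares and ratios, each in 1 genotype), the highest or lowest library was compared with the others of its genotype by Dixon's gap test, which chance alone would meet in about 1 in 20 groups. In 3 groups a library stood apart. *Igfbp3* reached 1459 FPKM in Wnk1f/f replicate 1, against 506 to 664 FPKM in the other Wnk1f/f libraries. The summed FPKM of the 6 binding proteins was 3130 in the same library, against 2053 to 2224 in the other 3, and *Igfbp3* is part of that sum. *Igfbp7* was 551.6 FPKM in Wnk1d/d replicate 1, against 820.2 to 877 FPKM in the other Wnk1d/d libraries.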

How the results depend on the processing

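Under the 19 alternative fits, *Igf2* and *Igf1r* passed in all 19, and *Igf1*, *Igfbp2*, *Igfbp3* and *Igfbp5* in 18, the exception being the replicate block. *Igf2r* passed in 12, *Igfbp6* in 3, *Igfbp4* in 1 and *Igfbp7* in 0. No fold change of these genes turned its direction. The block used the replicate numbers of the titles, which belong to different mice. In the deposited column names no number is shared between the genotypes. Deviations of same-numbered libraries correlated by -0.27 to 0.02, with 0 of 4 pairs above 0.1. These 4 values show no positive link but cannot settle whether any libraries shared a batch. With the replicate block, calls went from 6 to 1 among the 9 genes, from 5 to 1 by the study's criteria, and from 3249 to 220 over all genes. Leaving out each library gave 5 to 7 calls among the 9 genes, 3 to 5 by the study's criteria (3 without Wnk1f/f replicate 4) and 1730 to 4223 over all genes, the lowest being 1730 without Wnk1f/f replicate 4, 1795 without Wnk1d/d replicate 3 and 2047 without Wnk1d/d replicate 5. A fold criterion of 2 kept 2 of the 9, *Igfbp2* and *Igfbp3*. Without *Igfbp7*, the log2 difference of the binding protein sums was -0.74 in place of -0.49, and that of the ligand ratio 0.14 in place of -0.11. Leaving out each library, the latter ran from -0.27 to 0.0176, and the turn at 0.0176 came without Wnk1f/f replicate 4. The differences of the shares without *Igfbp7*, in percentage points, were 1.29 for *Igfbp2* (0.67 with it), -36.7 for *Igfbp3* (-24.7), 9.58 for *Igfbp4* (2.70, and 0.76 with *Igfbp7* but without Wnk1f/f replicate 1), 6.45 for *Igfbp5* (2.99) and 19.3 for *Igfbp6* (8.53), since the total is then smaller. The cause of the other changes was not tested. FPKM gives no depth per gene, which limits what can be said of genes near 1 FPKM such as *Igfbp1* and *Igfbp2* in Wnk1f/f.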
